A study of Mus musculus with 3 samples.

Results

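NR2F2 ChIP-seq peaks were examined around 10 genes that mark or specify Sertoli cells: Sox9, Sox8, Amh, Dmrt1, Fgf9, Ptgds, Cyp26c1, Cldn11, Gdnf and Tesc. A peak was assigned to one of these genes when the gene owned the nearest transcription start site (TSS) among curated RefSeq transcripts of the GRCm38 assembly, or when the peak lay no more than 100 kb from any of its TSSs, measured from the nearer edge of the peak. By this rule 16 of 10069 peaks were assigned, and they were spread over 6 of the 10 genes. Sox9, Cyp26c1, Gdnf and Tesc had no peak.

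NR2F2, also known as COUP-TFII, is an orphan nuclear receptor, a DNA-binding transcription factor found in the mesenchyme of many embryonic organs. Its occupancy was mapped by sequencing of immunoprecipitated chromatin (ChIP-seq). The tissue was the whole testis at E14.5, taken from embryos of CD-1 mice, an outbred stock with no transgene or deletion named in the labels. The series comprised 2 NR2F2 ChIP libraries, each made from chromatin of 30 pooled testes, and 1 input library of sheared chromatin without immunoprecipitation. The values were raw read counts at 300 bp peaks, with totals over all peaks of 426784 for ChIP replicate 1, 364261 for ChIP replicate 2 and 73251 for the input. These totals cover peaks only and are not sequencing depths, so a ratio of ChIP to input counts is known only up to the difference in depth between the libraries. The p-values measure only how much the 2 ChIP libraries differed from each other, and the lone input was assumed to have the same spread. Since the peaks were called on the merged reads of both ChIP libraries, a ChIP count above the input count is not independent evidence of binding.

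Sertoli cells are the supporting cells of the testis. They enclose the germ cells inside the testis cords, whereas mesenchymal, fetal Leydig, endothelial and immune cells lie in the interstitium between the cords. In the fetal gonad SRY switches on Sox9, and SOX9 with its relative SOX8 and with the growth factor FGF9 holds the supporting cells on the testis path, while DMRT1 maintains that fate later and AMH causes the Müllerian ducts to regress. Whole testis was used, so the cells that carried the occupancy at a peak cannot be told apart, and strong occupancy in few cells gives the same count as weak occupancy in many. The assay holds no expression values, so the 10 names mark genes and the presence of Sertoli cells could not be checked with them.

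Sequences of 6 of the 16 peaks are given here because the results turn on them: the peak at the Sox8 promoter, the 4 peaks with one of the 10 genes as their nearest gene (in Dmrt1, beyond Fgf9 and upstream of Cldn11), and the Cldn11 peak that had no input count. They are the plus strand of GRCm38 (mm10), with capitals marking each nuclear receptor half-site, AGGTCA or GGGTCA, or its reverse complement, TGACCT or TGACCC. In Cldn11 peak 1 the last capital run is the longer form AGAGGTCA. Peaks are numbered from the TSS of their gene outward.
Sox8 peak 1 (chr17:25570741-25571040, plus strand): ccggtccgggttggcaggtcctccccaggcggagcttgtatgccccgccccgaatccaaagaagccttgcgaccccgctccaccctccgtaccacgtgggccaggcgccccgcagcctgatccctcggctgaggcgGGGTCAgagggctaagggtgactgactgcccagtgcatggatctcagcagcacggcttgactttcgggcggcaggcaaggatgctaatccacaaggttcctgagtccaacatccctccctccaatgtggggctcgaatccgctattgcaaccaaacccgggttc
Dmrt1 peak 1 (chr19:25533764-25534063, plus strand): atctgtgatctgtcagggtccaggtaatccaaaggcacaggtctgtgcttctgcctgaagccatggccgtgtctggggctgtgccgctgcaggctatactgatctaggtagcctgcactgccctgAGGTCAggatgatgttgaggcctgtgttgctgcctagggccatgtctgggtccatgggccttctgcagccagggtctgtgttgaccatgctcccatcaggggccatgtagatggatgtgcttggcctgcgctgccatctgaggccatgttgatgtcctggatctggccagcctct
Fgf9 peak 2 (chr14:58322582-58322881, plus strand): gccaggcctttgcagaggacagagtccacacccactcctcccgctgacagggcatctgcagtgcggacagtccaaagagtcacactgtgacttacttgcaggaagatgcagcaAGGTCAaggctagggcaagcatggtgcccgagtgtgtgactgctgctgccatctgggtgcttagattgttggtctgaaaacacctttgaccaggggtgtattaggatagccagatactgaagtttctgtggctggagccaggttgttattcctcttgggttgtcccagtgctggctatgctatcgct
Cldn11 peak 1 (chr3:31136496-31136795, plus strand): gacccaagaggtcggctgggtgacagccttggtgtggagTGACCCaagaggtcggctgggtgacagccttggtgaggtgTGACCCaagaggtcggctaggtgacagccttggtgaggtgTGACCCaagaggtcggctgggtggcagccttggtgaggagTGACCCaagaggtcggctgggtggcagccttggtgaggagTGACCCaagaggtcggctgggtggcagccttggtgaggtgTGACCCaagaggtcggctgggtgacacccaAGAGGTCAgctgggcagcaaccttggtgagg
Cldn11 peak 2 (chr3:31133618-31133917, plus strand): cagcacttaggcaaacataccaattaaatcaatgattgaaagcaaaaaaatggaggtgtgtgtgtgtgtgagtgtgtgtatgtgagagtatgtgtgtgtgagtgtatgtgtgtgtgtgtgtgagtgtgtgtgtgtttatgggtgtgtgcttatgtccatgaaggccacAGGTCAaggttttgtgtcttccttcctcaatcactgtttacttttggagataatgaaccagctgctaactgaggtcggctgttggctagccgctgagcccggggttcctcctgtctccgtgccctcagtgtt
Cldn11 peak 6 (chr3:31056714-31057013, plus strand): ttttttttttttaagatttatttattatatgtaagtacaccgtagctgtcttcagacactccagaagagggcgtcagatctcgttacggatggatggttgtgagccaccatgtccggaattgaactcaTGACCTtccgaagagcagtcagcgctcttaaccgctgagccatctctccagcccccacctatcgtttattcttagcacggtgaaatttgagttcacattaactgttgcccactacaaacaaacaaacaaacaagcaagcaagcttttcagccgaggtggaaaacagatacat
The capitals are exact matches of letters and are not measured binding sites. Most of these peaks held 1 half-site, at or near the middle of the peak, whereas Cldn11 peak 1 held 7.

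**Figure D1:**
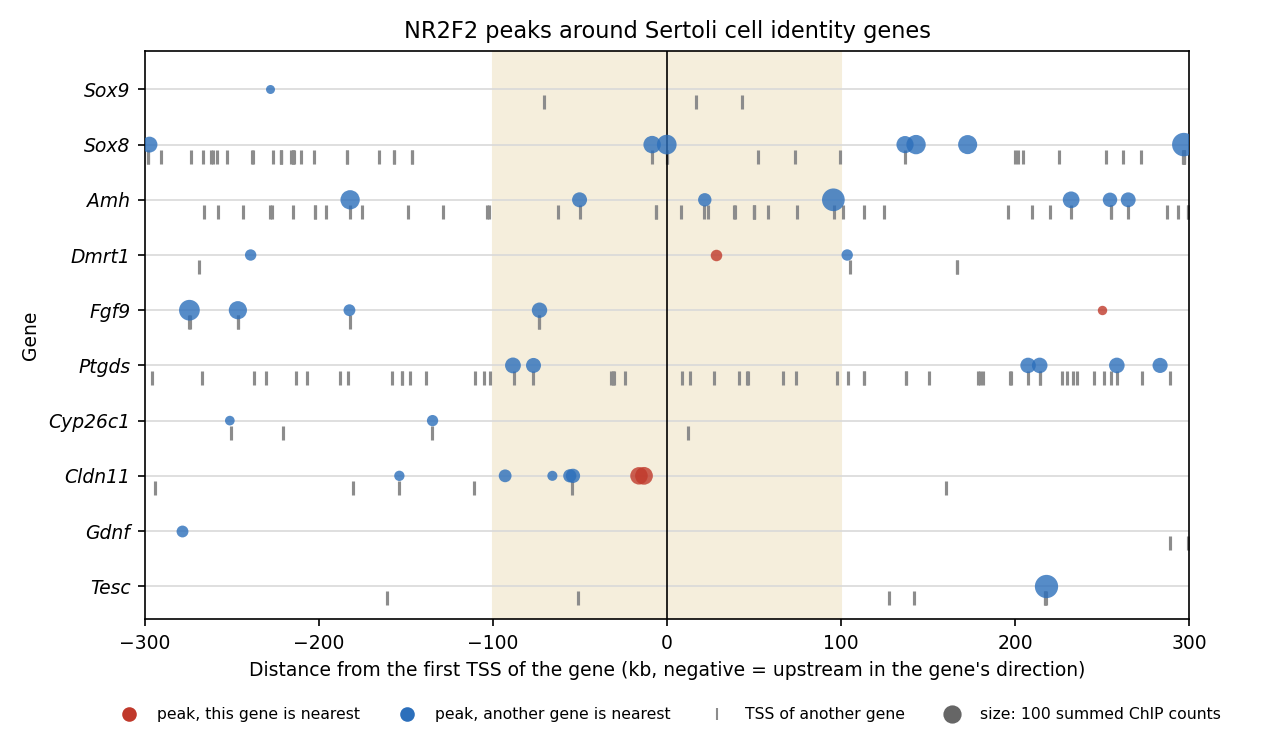
Peaks within 300 kb of the TSS of each gene, with distance from the TSS in kb on the horizontal axis and the 10 genes on the vertical axis. Points are peaks sized by the summed count of both ChIP libraries, red where the gene of that row is the nearest and blue where another gene is, grey ticks are TSSs of other genes, and shading covers 100 kb to either side. Sox9, Cyp26c1, Gdnf and Tesc have no point in the shaded band, and most blue points there stand on a tick.

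Only 4 of the 16 peaks had one of the 10 genes as their nearest gene, 1 for Dmrt1, 1 for Fgf9 and 2 for Cldn11. The other 12 were assigned by distance and had a neighboring gene as nearest, and 10 of these lay within 1 kb of that neighbor's TSS. Across all 10064 peaks placed on a chromosome, 58.0% lay within 1 kb of a TSS, beside 62.5% of the 16. A single peak lay within 1 kb of the TSS of one of the 10 genes, at Sox8. Of the 10 genes, 60% had a peak by the rule, compared with 69.5% of 26180 curated genes, 30.0% were nearest to a peak, compared with 30.8%, and 1 had a peak within 1 kb, compared with 24.8% of all genes.

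Under a distance rule, the share of genes with a peak differed with the number of genes around. Amh had 12 other genes with a TSS within 100 kb and Ptgds had 13, whereas Sox8 had 5, Sox9 had 3, Fgf9 had 2, Cyp26c1, Cldn11 and Tesc had 1 each, and Dmrt1 and Gdnf had none. Among all genes with 0 to 2 such neighbors, 55.8% had a peak by the rule and 38.3% were nearest to one. Among those with 3 to 5, 75.7% had a peak and 31.6% were nearest to one. Among those with 11 or more, 81.3% had a peak and 19.0% were nearest to one. In the sparse class 3 of 6 Sertoli genes (Dmrt1, Fgf9 and Cldn11) had a peak and in the dense class both genes, Amh and Ptgds, had one, while Sox8 but not Sox9 had one in the class of 3 to 5 neighbors.

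**Figure D2:**
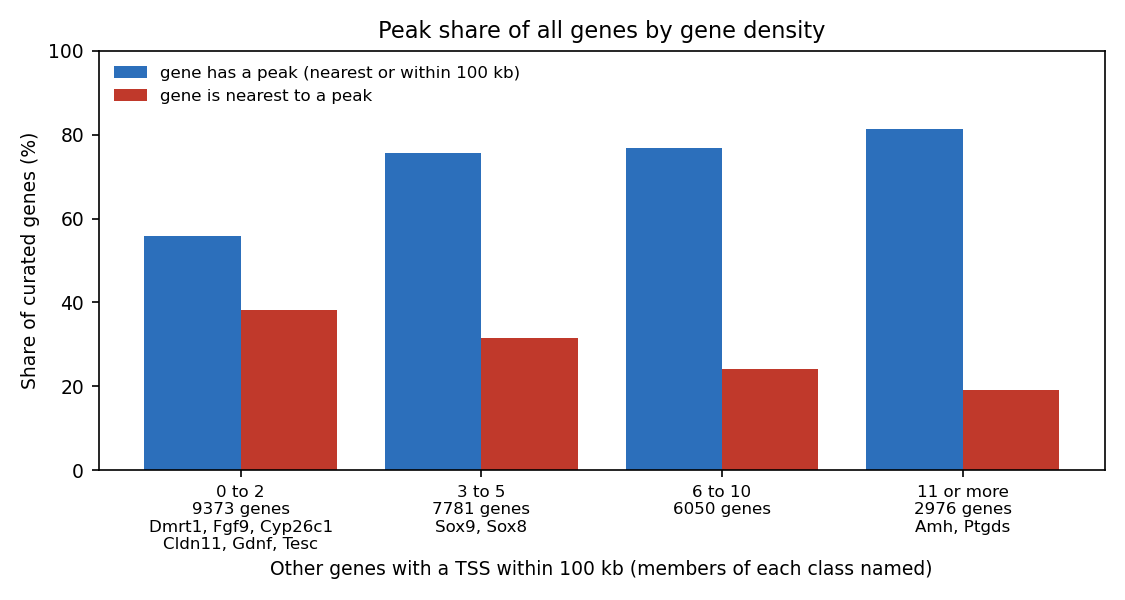
Share of all curated genes (in percent) that had a peak by the rule (blue) or were nearest to a peak (red), by the number of other genes with a TSS within 100 kb, with the 10 Sertoli genes named under their class. From the sparsest to the densest class the first share goes from 55.8% to 81.3% and the second from 38.3% to 19.0%.

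The 16 peaks had a median summed ChIP count of 86.0 (range 34 to 198), compared with 68.0 over all peaks. Per library the medians were 49.5 in ChIP replicate 1, 40.5 in ChIP replicate 2 and 9.50 in the input, beside 37.0, 31.0 and 7 over all peaks. Both ChIP counts exceeded the input count at 16 of 16 peaks, as they did at 99.9% of all peaks. The median log2 ratio of ChIP to input, with 0.5 added to each count, was 2.28 ± 0.15 (SD, n = 2 ChIP libraries), and over all peaks it was 2.24 ± 0.15. The 4 peaks with a Sertoli gene as nearest had a median log2 ratio of 1.64 ± 0.33 and the 12 nearest to another gene had 2.43 ± 0.17 (SD, n = 2 in each case), and the first median was the lower in both libraries. That difference was not tested.

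With the libraries taken as equally deep, 12 of the 16 peaks were called above the input by the quasi-likelihood test of edgeR (Benjamini-Hochberg adjusted p under 0.05 over all peaks). Of all peaks, 80.7% were called in this way, and the count among the 16 became 0 if a 2 times greater depth of the ChIP libraries was assumed, as did that of the whole set. The 4 peaks without a call were Sox8 peak 2, Dmrt1 peak 1, Cldn11 peak 3 and Cldn11 peak 5. All 4 were called when the ChIP replicates were scaled to each other, as were 97.9% of all peaks. When the ChIP to input ratio of each peak was set against that of the typical peak (TMM factors on the counts at peaks), 1 of 16 was called by edgeR, Cldn11 peak 6, which lay above it. Of all peaks 1.58% were called, 1.53% above and 0.0497% below the typical peak. Without adjustment 3 of 16 passed (background 10.4%), Cldn11 peaks 4 and 6 above and Dmrt1 peak 1 below. A difference between the ChIP replicates was called at 0 of 16 peaks (exact two-sided binomial test, smallest adjusted p = 0.329, background 0.0993%), and at 2 of 16 without adjustment (background 8.83%).

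**Figure D3:**
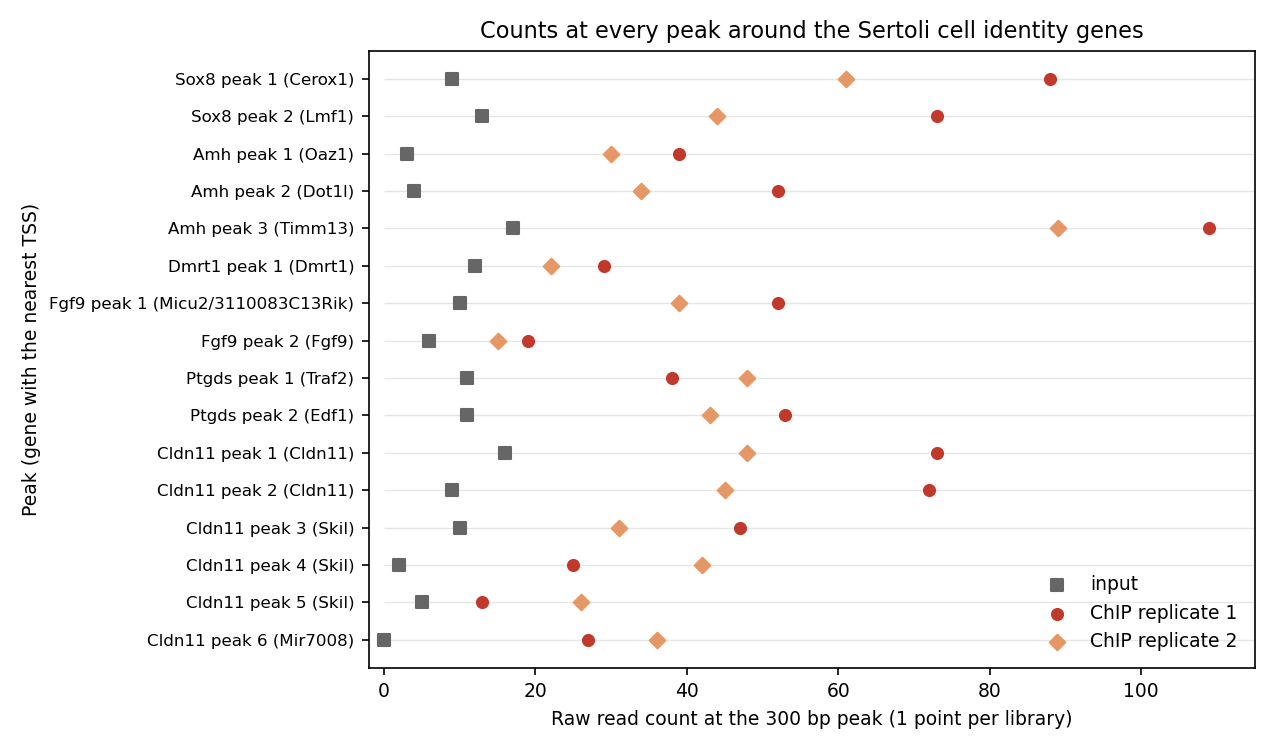
Raw read count at each of the 16 peaks (horizontal axis) in the input (grey squares), ChIP replicate 1 (red circles) and ChIP replicate 2 (orange diamonds), 1 point per library, with the nearest gene in brackets. In every peak both ChIP points lie to the right of the input point, and the counts reach 109 at Amh peak 3 while Dmrt1 peak 1, Fgf9 peak 2 and Cldn11 peak 5 stay at or below 29.

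Sox8 (NCBI gene ID 20681, chr17:25565893-25570686, minus strand) encodes an SRY-box transcription factor that acts alongside SOX9 in Sertoli cells. It was the only one of the 10 genes with a peak at its promoter. Sox8 peak 1 began 55 bp upstream of the Sox8 TSS and covered the TSS and an exon of Cerox1 (gene 72834), a non-coding gene that starts 125 bp away from Sox8. It covered 196 bases of the 300 bp that run from 250 bp upstream to 50 bp downstream of the Sox8 start, and its half-site, GGGTCA at base 137 of the peak, was the one half-site in that promoter window too. The counts were 88 in ChIP replicate 1, 61 in ChIP replicate 2 and 9 in the input, so both raw ChIP counts exceeded the input count. ChIP replicate 1 held 9.78 times the input count (95% exact interval 4.92 to 22.1) and ChIP replicate 2 held 6.78 times (3.35 to 15.5), the intervals covering counting error only. The summed ChIP count reached the percentile 94.0 of all peaks. By edgeR the log2 ratio was 3.03 ± 0.50 (SE, adjusted p = 0.0316) at equal depth, and relative to the typical peak it was 0.72 ± 0.48 (adjusted p = 0.675), which was not called. Reads at this peak cannot be divided between the Sox8 and Cerox1 promoters.

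A further peak stood 8453 bp upstream of Sox8. Sox8 peak 2 (chr17:25579139-25579438) covered the TSS and part of a coding exon of Lmf1 (gene 76483), which encodes a factor needed for lipase maturation. It had 73 counts in ChIP replicate 1, 44 in ChIP replicate 2 and 13 in the input, and with a log2 ratio of 2.16 ± 0.58 (SE, adjusted p = 0.0532, edgeR at equal depth) it narrowly missed the threshold. Both ChIP counts were above the input, and a difference between the replicates was not called (exact binomial p = 0.0777, adjusted p = 0.626). Its half-site, on the minus strand, began at base 281, near the edge of the peak.

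Sox9 (gene 20682, chr11:112782210-112787757, plus strand), the central transcription factor of Sertoli cell differentiation, had no peak. The closest lay 228298 bp upstream (chr11:112553613-112553912), outside any gene, and its own nearest gene was BC006965 at 157444 bp. This distant peak was among the weakest measured, with 16 counts in ChIP replicate 1, 15 in ChIP replicate 2 and 8 in the input, and with a summed ChIP count at percentile 3.13. The edgeR log2 ratio was 0.94 ± 0.27 (SE, adjusted p = 0.0827) at equal depth, which was not called. Within 1 Mb of the Sox9 TSS there were 8 peaks, compared with 24 for Sox8. Other genes within 100 kb numbered 3 at Sox9 and 5 at Sox8. Genes within 1 Mb were not counted, so the 2 peak numbers are not matched for gene density.

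Dmrt1 (gene 50796, chr19:25505706-25604328, plus strand) encodes a DM-domain transcription factor that keeps postnatal Sertoli cells from taking on granulosa features and that is also active in germ cells. Its 1 peak lay inside an intron, 28058 bp downstream of the TSS. ChIP replicate 1 had 29 counts, ChIP replicate 2 had 22 and the input had 12. The input here was high for a peak (percentile 92.8), and the ChIP counts were only 2.42 times (95% exact interval 1.20 to 5.20) and 1.83 times (0.869 to 4.06) as high. No other of the 16 peaks had a lower log2 ratio in the edgeR fits, with 1.08 ± 0.36 (SE, adjusted p = 0.0766) at equal depth and -1.23 ± 0.53 (adjusted p = 0.332) relative to the typical peak, neither of them called. The next peak outward lay just beyond the rule, 103330 bp downstream of the Dmrt1 TSS and 1202 bp upstream of Dmrt3 (chr19:25609036-25609335), and held 18 counts in ChIP replicate 1, 32 in ChIP replicate 2 and 9 in the input.

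Amh (gene 11705, chr10:80805240-80807679, plus strand) encodes anti-Müllerian hormone, and its 3 peaks were all at promoters of other genes. Amh peak 1 (chr10:80826739-80827038) lay 21499 bp downstream of Amh in a coding exon of Oaz1 (gene 18245, a regulator of polyamine synthesis), 83 bp from the Oaz1 TSS. It had 39 counts in ChIP replicate 1, 30 in ChIP replicate 2 and 3 in the input, so that the ratios were high but wide, 13.0 (95% exact interval 4.13 to 65.8) and 10 (3.11 to 51.2). The edgeR log2 ratio at equal depth was 3.47 ± 0.48 (SE, adjusted p = 0.0311).

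Amh peak 2 (chr10:80754790-80755089) lay 50151 bp upstream of Amh, outside any gene and 114 bp from the TSS of Dot1l (gene 208266), the histone H3 lysine 79 methyltransferase. It had 52 counts in ChIP replicate 1, 34 in ChIP replicate 2 and 4 in the input (edgeR log2 ratio 3.39 ± 0.62 at equal depth, adjusted p = 0.0336). Amh peak 3 (chr10:80900627-80900926) lay 95387 bp downstream of Amh in the 5′ UTR of Timm13 (gene 30055, a mitochondrial import chaperone), 43 bp from its TSS. The highest counts of all 16 peaks were measured there, 109 in ChIP replicate 1, 89 in ChIP replicate 2 and 17 in the input. Its log2 ratio was called above input at equal depth by edgeR (2.53 ± 0.32, SE, adjusted p = 0.0311) but was close to that of the typical peak (0.22 ± 0.37). No peak was within 1 kb of Amh itself, and the 9 other genes around Amh had no peak of their own.

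Fgf9 (gene 14180, chr14:58072686-58112720, plus strand) encodes a secreted fibroblast growth factor that supports Sox9 expression. Fgf9 peak 1 (chr14:57999232-57999531) was 73155 bp upstream, over the paired TSSs of Micu2 (gene 68514, a regulator of mitochondrial calcium uptake) and the non-coding 3110083C13Rik (gene 73208). The counts were 52 in ChIP replicate 1, 39 in ChIP replicate 2 and 10 in the input, and edgeR called it above input at equal depth (log2 ratio 2.17 ± 0.41, SE, adjusted p = 0.0342). Fgf9 peak 2 lay far downstream, 249896 bp from the Fgf9 TSS and outside any gene, and was assigned because no other curated TSS was nearer. Its counts were the lowest sum among the 16, 19 in ChIP replicate 1, 15 in ChIP replicate 2 and 6 in the input, at percentile 6.55 of all peaks. ChIP still exceeded input in both libraries, by 3.17 times (95% exact interval 1.22 to 9.69) and 2.50 times (0.917 to 7.86), and the second interval reaches below 1. The edgeR log2 ratio at equal depth was 1.48 ± 0.36 (SE, adjusted p = 0.0461). With predicted RefSeq models included, Gm33321 was nearer, at 21780 bp, and the peak was no longer assigned to Fgf9.

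Ptgds (gene 19215, chr2:25466712-25469749, minus strand) encodes prostaglandin D2 synthase, whose product can raise Sox9 in the fetal gonad. Neither of its 2 peaks was near it. Ptgds peak 1 (chr2:25546365-25546664) lay 76616 bp upstream in an intron of Traf2 (gene 22030, a TNF receptor adaptor), 276 bp from the Traf2 TSS, with 38 counts in ChIP replicate 1, 48 in ChIP replicate 2 and 11 in the input. Ptgds peak 2 (chr2:25558171-25558470) lay 88422 bp upstream in an intron of Edf1 (gene 59022, a transcriptional coactivator), 324 bp from the Edf1 TSS, with 53 counts in ChIP replicate 1, 43 in ChIP replicate 2 and 11 in the input. Both were called above input at equal depth by edgeR, with log2 ratios of 1.95 ± 0.36 (SE, adjusted p = 0.0337) and 2.11 ± 0.35 (adjusted p = 0.0316). The 11 other genes within 100 kb of Ptgds had no peak of their own.

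Cldn11 (gene 18417, chr3:31149920-31164326, plus strand) encodes claudin-11, the tight junction protein of the Sertoli cell barrier, and it had the most peaks of the 10 genes. All 6 were upstream of the TSS, from 13125 to 92907 bp away, and 2.83% of all curated genes had at least 6 peaks by the same rule. Only the closest 2 had Cldn11 as their nearest gene. The next 3 were nearest to Skil (gene 20482, a repressor of SMAD signaling), the only other gene with a TSS within 100 kb of that of Cldn11, and the farthest was nearest to the microRNA gene Mir7008 (gene 102465610) at 17748 bp.

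Cldn11 peak 1, 13125 bp upstream and outside any gene, had 73 counts in ChIP replicate 1, 48 in ChIP replicate 2 and 16 in the input. Its input count was also high, at percentile 98.8 of all peaks. The edgeR log2 ratio was 1.91 ± 0.48 (SE, adjusted p = 0.0487) at equal depth and -0.40 ± 0.42 (adjusted p = 0.855) relative to the typical peak. The sequence printed above is a tandem repeat. Of its 7 half-sites, 6 were GGGTCA on the minus strand spaced exactly 40 bases apart, and 88.5% of its bases matched the base 40 positions on, compared with a median of 26.9% over all peaks. The peak was among 59 with at least 7 half-sites and was the only one of the 16 to hold the longer form AGAGGTCA, at base 270. How reads from a repeated sequence were placed was not tested.

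Cldn11 peak 2, 16003 bp upstream and also outside any gene, had 72 counts in ChIP replicate 1, 45 in ChIP replicate 2 and 9 in the input. Those ChIP counts were nearly the same as at Cldn11 peak 1, over a lower input, and the ratios were 8 (95% exact interval 3.99 to 18.2) and 5.00 (2.41 to 11.6). By edgeR the log2 ratio was 2.68 ± 0.58 (SE, adjusted p = 0.0398) at equal depth and 0.38 ± 0.51 relative to the typical peak. This was the highest log2 ratio among the 4 peaks that had a Sertoli gene as nearest gene. Its single half-site, AGGTCA at base 169, came after a stretch rich in alternating G and T, and the repeat masking of the reference covered 38.3% of the peak.

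The 3 peaks nearest to Skil lay on both sides of its TSS. Cldn11 peak 3 (chr3:31095700-31095999), in an intron 642 bp from the TSS, had 47 counts in ChIP replicate 1, 31 in ChIP replicate 2 and 10 in the input, and was just outside the threshold at equal depth (edgeR log2 ratio 1.95 ± 0.50, SE, adjusted p = 0.0501). Cldn11 peak 4 (chr3:31093862-31094161), 897 bp upstream of Skil, had 25 counts in ChIP replicate 1, 42 in ChIP replicate 2 and 2 in the input. Its ratios of 12.5 (95% exact interval 3.12 to 109) and 21.0 (5.46 to 179) rest on those 2 input counts, and the edgeR log2 ratio was 3.98 ± 0.81 (SE, adjusted p = 0.0364) at equal depth and 1.74 ± 0.86 (adjusted p = 0.457) relative to the typical peak. Cldn11 peak 5 (chr3:31083853-31084152), 10906 bp from Skil, had 13 counts in ChIP replicate 1, 26 in ChIP replicate 2 and 5 in the input, and was not called above input (edgeR log2 ratio 1.94 ± 0.77, SE, adjusted p = 0.108). Peaks 4 and 5 were the 2 with an unadjusted replicate difference, with exact binomial p = 0.00685 and 0.0149, and in both ChIP replicate 2 was the higher library. At 12 of the 16 peaks ChIP replicate 1 was higher, as at 69.3% of all peaks.

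Cldn11 peak 6, 92907 bp upstream and near the limit of the rule, had 27 counts in ChIP replicate 1, 36 in ChIP replicate 2 and 0 in the input. Only 40 of all peaks had no input count. Against a floor of 3 counts per library the ChIP counts were at least 9-fold and at least 12-fold higher than the input. It was called above input at equal depth (edgeR adjusted p = 0.0311) and was the 1 peak of the 16 called above the typical peak (edgeR adjusted p = 0.0423). The second call was lost without TMM factors (adjusted p = 0.0770) and with the size factors of DESeq2 (adjusted p = 0.290), both fitted in edgeR. Repeat masking covered 76.0% of this peak (percentile 99.7), compared with a median of 0% over all peaks, and the part played by mapping in the missing input count was not tested.

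**Figure D4:**
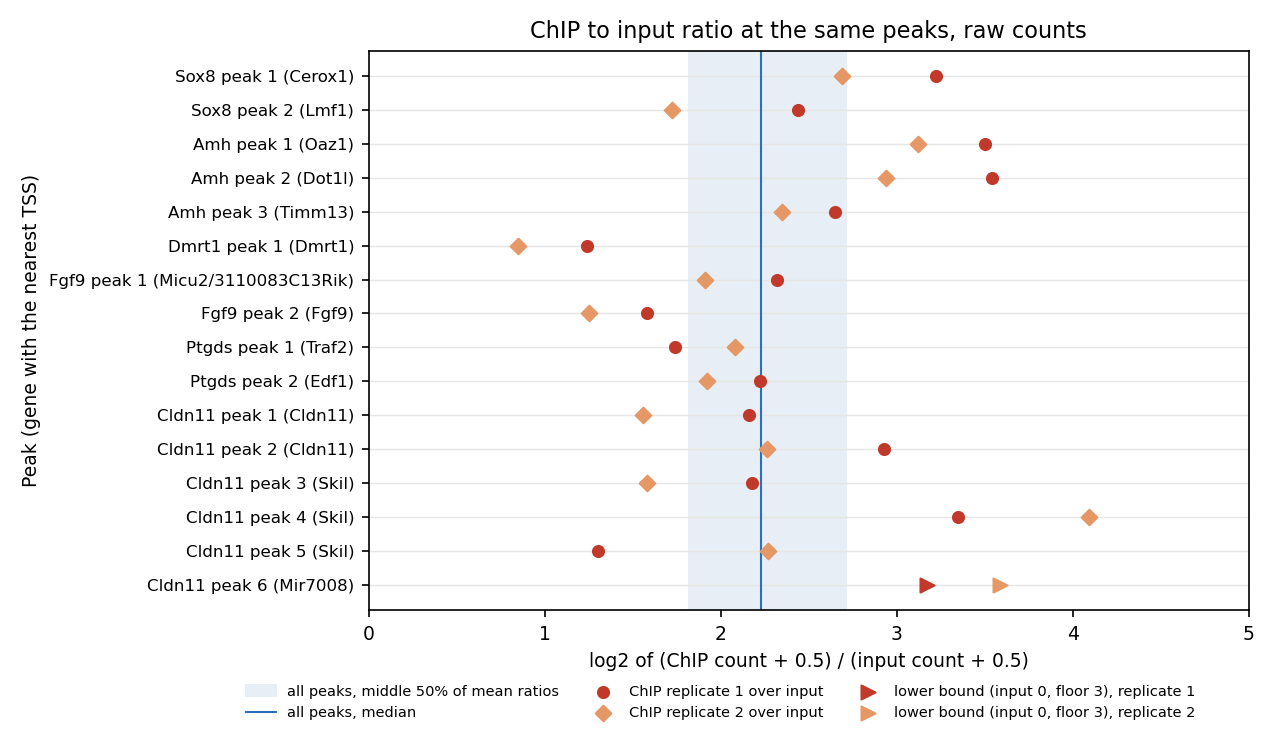
Log2 ratio of ChIP to input count, with 0.5 added to each, for each of the 16 peaks in ChIP replicate 1 (red circles) and ChIP replicate 2 (orange diamonds), beside the median (blue line) and the middle 50% (blue band) of all peaks. Triangles show Cldn11 peak 6, whose input count was 0, at the log2 of its lower bounds of 9-fold and 12-fold, set by the floor of 3 counts with nothing added. Dmrt1 peak 1 has the lowest value in each replicate, 1.24 and 0.85, and the next lowest are Cldn11 peak 5 in ChIP replicate 1 (1.30) and Fgf9 peak 2 in ChIP replicate 2 (1.25).

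Cyp26c1 (gene 546726, chr19:37685680-37693307, plus strand), Gdnf (gene 14573, chr15:7810048-7837580, plus strand) and Tesc (gene 57816, chr5:118027743-118061878, plus strand) joined Sox9 as genes without a peak. They encode a retinoic acid degrading enzyme, the neurotrophic factor that Sertoli cells supply to spermatogonial stem cells, and a calcium-binding protein first described in the testis. The closest peak to Cyp26c1 lay 134614 bp upstream (chr19:37550767-37551066) in an intron of Exoc6, 349 bp from its TSS, and had 28 counts in ChIP replicate 1, 21 in ChIP replicate 2 and 5 in the input. For Gdnf the closest lay 278440 bp upstream (chr15:7531309-7531608) outside any gene, with 26 counts in ChIP replicate 1, 28 in ChIP replicate 2 and 6 in the input. The strongest peak next to any of these genes was the one 217427 bp downstream of Tesc (chr5:118245170-118245469), over the TSS of Spring1, with 122 counts in ChIP replicate 1, 86 in ChIP replicate 2 and 19 in the input. Peaks were present in the wider surroundings of all 3 genes, 13, 10 and 14 within 1 Mb for Cyp26c1, Gdnf and Tesc. Cyp26a1, the related gene 12128 bp from Cyp26c1, also had no peak. A list of peaks shows which places passed the calling threshold, and occupancy below it was not detectable here.

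The limit of 100 kb fell between peaks at 95387 bp (Amh peak 3), 92907 bp (Cldn11 peak 6) and 88422 bp (Ptgds peak 2) just inside, and 103330 bp (Dmrt1), 134614 bp (Cyp26c1) and 136550 bp (Sox8, at the promoter of Cacna1h, with 60 counts in ChIP replicate 1, 53 in ChIP replicate 2 and 9 in the input) just outside. With a limit of 50 kb in the same rule 7 peaks would have been assigned, and with 200 kb 24, both including Fgf9 peak 2, which was assigned by nearest TSS alone.

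A nuclear receptor half-site, AGGTCA or GGGTCA on either strand, was found in 13 of the 16 peaks (81.2%), compared with 58.9% of all peaks. In the central 100 bp it was found in 12 of 16 (75.0%), compared with 32.4% of all peaks. In the whole set the share was 48.2% for peaks within 1 kb of a TSS and 73.7% for those beyond, and the 16 peaks had it in 7 of 10 within 1 kb and in 6 of 6 beyond. For the central 100 bp the shares in the whole set were 22.4% within 1 kb and 46.2% beyond. Among the 16 peaks the central counts were 6 of 10 and 6 of 6. These differences were not tested. All 4 peaks that had a Sertoli gene as nearest gene held a half-site in the central 100 bp. The 3 peaks without a half-site were Amh peak 1, Amh peak 3 and Ptgds peak 1, at the promoters of Oaz1, Timm13 and Traf2, and edgeR called all 3 above input at equal depth. In Fgf9 peak 1, 2 of the 3 half-sites overlapped by 1 base on the same strand, at bases 230 and 235.

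Longer and other motifs gave lower counts. The longer forms AGAGGTCA and AGGGGTCA, which contain the half-site, were found in 1 of 16 peaks (10.5% of all peaks), and a direct repeat of half-sites with a gap of 0 to 5 bases in 0 of 16 (4.47% of all peaks). The NR5A1 site CAAGGTCA, which also contains the half-site, was found in 1 of 16, Fgf9 peak 2 (6.72% of all peaks). SOX sites (ACAAAG or ACAATG) were found in 2 of 16 (20.4% of all peaks), Sox8 peak 2 and Amh peak 3, and GATA sites (AGATAA or TGATAA) in 3 of 16 (11.4% of all peaks), Amh peak 1, Cldn11 peak 2 and Cldn11 peak 4. All motifs were searched on both strands. These are counts of letters in 300 bp windows, and they say nothing about which factor was present.

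**Figure D5:**
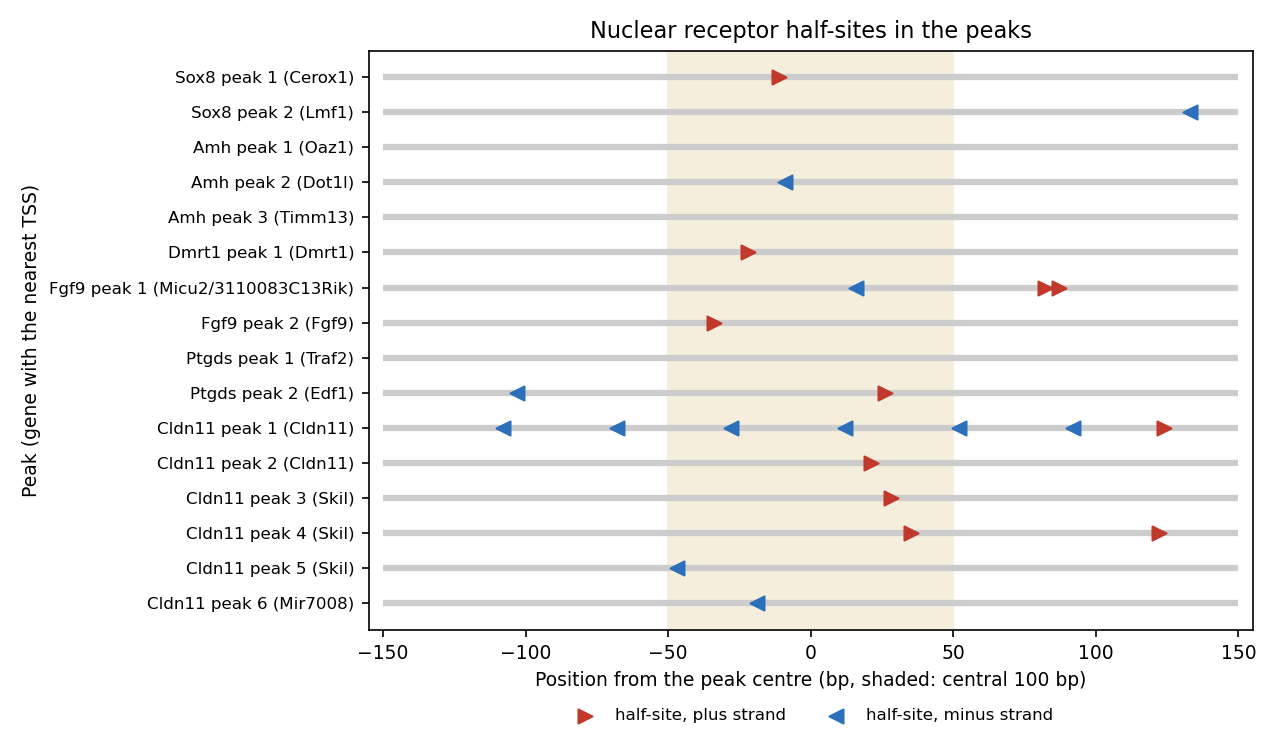
Positions of AGGTCA or GGGTCA in the 16 peaks, in bp from the peak center, on the plus (red) and minus (blue) strand, with the central 100 bp shaded. In 12 of 16 peaks at least 1 mark falls in the shaded band, and Cldn11 peak 1 shows 6 evenly spaced minus strand marks.

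RefSeq promoter windows (250 bp before to 50 bp after a start, GRCm38) were found for 7 of the 10 genes, 8 windows in all because Gdnf has more than 1 start. None was found for Sox9, Amh or Dmrt1. A half-site was present in 2 of the 8 windows, those of Sox8 and of the first Gdnf start (27.5% of 32851 windows of the same length), a SOX site in 1 (Ptgds; 28.6%), a GATA site in 3 (18.6%) and the longer half-site form in 0 (2.63%). Only the Sox8 window overlapped a peak.

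Around 20 other genes of Sertoli cells, 38 peaks were assigned by the same rule. Of these genes 15 of 20 had a peak (69.5% of all curated genes) and 8 of 20 were nearest to one (30.8% of all curated genes; Cbln4, Defb19, Gata4, Hsd17b3, Kitl, Nr0b1, Nr5a1 and Zfpm2), whereas Cst9, Fshr, Rhox8, Sry and Clu had none. A peak within 1 kb of the TSS was present at 4 of 20 (24.8% of all curated genes), Defb19, Gata4, Nr0b1 and Zfpm2. Being listed does not mean that a gene is active in Sertoli cells only, and no expression was measured here. The median summed ChIP count was 84.0 and the median log2 ratio 2.48, with 32 of 38 peaks called above input at equal depth by edgeR (80.7% of all peaks). The peak with the highest summed ChIP count was assigned to Defb19, 56057 bp away and nearest to Rem1 (chr2:152636369-152636668), and it had 99 counts in ChIP replicate 1, 77 in ChIP replicate 2 and 6 in the input. The next was assigned to Hsd17b1, 95302 bp away and nearest to Ccr10 (chr11:101173713-101174012), and it had 92 counts in ChIP replicate 1, 77 in ChIP replicate 2 and 11 in the input. Both of these peaks were nearest to a gene outside the list, as were 12 of the 16 peaks at the identity genes.

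Lists of other testis and ovary cell types gave the following counts by the same rule, under which 69.5% of all curated genes had a peak and 30.8% were nearest to one. Among 10 interstitial genes 8 had a peak and 7 were nearest to one, and 24 of their 29 peaks had a listed gene as nearest. Some of those 24 lay beyond 100 kb and were assigned by nearest TSS alone. They were at Nr2f2 (up to 657009 bp), Maf (up to 608324 bp) and Wnt5a (385329 bp). Among 10 fetal Leydig cell genes 9 had a peak and 5 were nearest to one (6 of 19 peaks), among 10 germ cell genes 8 had a peak and 1 was nearest to one (2 of 19 peaks), and among 10 granulosa cell genes 8 had a peak and 6 were nearest to one (6 of 17 peaks). Nr5a1 stands in both the Sertoli and the Leydig list and Nr0b1 in both the Sertoli and the granulosa list. Differences between the lists were not tested.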

How the data were processed

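NR2F2 occupancy was measured by ChIP-seq in whole E14.5 testes, with 2 ChIP libraries and 1 input library, grouped by their labels. The deposited values are raw counts of reads at each peak, which the authors produced separately for every library. The study's methods state that reads were trimmed (TrimGalore 0.6.7), mapped to mm10 with Bowtie 2 and filtered on mapping quality, and that duplicates were removed (Picard 1.110). Peaks were called by HOMER 4.11.1 on the merged ChIP replicates, resized to 300 bp and cleared of blacklisted regions. The sources used here do not say how reads were assigned to peaks. Duplicate removal limits how high a count can rise.

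Positions were read against GRCm38.p6, the assembly of mm10, with curated RefSeq transcripts (45756 transcripts of 26180 genes). Of 10069 peaks, 5 lay on unplaced contigs and were left out of distances. edgeR 4.0.16 (quasi-likelihood test; R 4.3.3 with limma 3.58.1) was fitted on all peaks and all 3 libraries, at equal depth and with TMM factors, with Benjamini-Hochberg adjustment over all peaks. Standard errors were derived from the F statistic. Ratios of 2 counts carry exact (Clopper-Pearson) 95% intervals, which like the floor of 3 counts cover counting error only. Replicates were compared by an exact binomial test against their totals at peaks. Percentiles are over all peaks. DESeq2 1.42.0 served as an alternative. The input had a median of 7 counts per peak, which limits every ratio. The scripts were tested on simulated counts. Other steps used Python 3.11.15, numpy 2.4.6, scipy 1.17.1, pandas 2.3.3 and pysam 0.24.0.

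The 10 genes, the other gene lists and the rules were chosen with earlier results of these data known. All 10 genes, every assigned peak with its nearest gene, the closest peak of each gene without one, and the 2 peaks with the highest summed ChIP counts at the other Sertoli genes are named. The choice of the 6 sequences printed was made after their values were seen.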

Additional observations from a re-analysis of the deposited data

How the results depend on the processing

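The number of assigned peaks was 16 by the rule, 7 with a limit of 50 kb and 4 with the nearest TSS alone, and the number of genes with a peak was 6 by the rule and 3 with the nearest TSS alone. A limit of 200 kb gave 24 peaks at 7 genes, distances from the peak midpoint gave 16 at 6 (for the genes, a check added after the data were seen) and all RefSeq transcripts gave 15 at 6. The count of peaks above input, 12 of 16, became 0 when the ChIP libraries were taken as 2 times deeper. There 0% of all peaks were called, so the count rests on the assumed depths. At an unadjusted p under 0.05 by edgeR that setting gave 5 of 16, beside 3928 of all 10069 peaks. The count was 7 when only the 8 peaks with at least 10 input counts were tested (88.5% of all such peaks). It was 16 with robust fitting (97.5% of all peaks), with the ChIP replicates scaled to each other (97.9%) or with the ChIP libraries taken as 2 times shallower (97.9%). By DESeq2 it was 13 (65.5% of the 9377 peaks that had an adjusted p). As designed, 80.7% of all peaks were called. The 1 call relative to the typical peak (1.58% of all peaks) became 0 by DESeq2 (1 unadjusted; 14 of the 16 without an adjusted p, and 3.15% called of the 699 of all peaks that had one), 0 with the size factors of DESeq2 in edgeR (2 unadjusted; over all 10069 peaks 0.387% called and 890 unadjusted) and 0 without TMM factors (2 unadjusted; over all peaks 1.08% called and 1021 unadjusted), for which the cause was not tested, and was 1 with robust fitting (1.58% of all peaks). With at least 10 input counts required it was 0 (0 unadjusted; 2.55% of all such peaks called) by construction, since the called peak, Cldn11 peak 6, had no input count and was not among the 8 peaks fitted. The median log2 ratio of 2.28 was 1.85 with 5 added to each count and -0.15 with each count divided by its library's total at peaks, and ranged from 2.17 to 2.38 without either ChIP replicate. Leaving out a ChIP library leaves 1 against 1, so these are values with no test. The replicate difference stayed at 0 of 16 when equal shares were assumed. The half-site counts were 13 in the whole peak and 12 in its center, and the longer form was 1 in the whole peak and 0 in its center. Division by the totals at peaks, which sets the typical peak near 0, also turned 9 single-peak log2 ratios negative: Sox8 peak 2 (-0.35), Dmrt1 peak 1 (-1.38), Fgf9 peaks 1 (-0.31) and 2 (-1.01), Ptgds peaks 1 (-0.52) and 2 (-0.36), and Cldn11 peaks 1 (-0.57), 3 (-0.55) and 5 (-0.65). Of the other single-peak values, 153 kept their side of the threshold or stayed within the replicate spread, 17 moved by more than that spread, 16 newly passed the threshold and 15 no longer passed it. The 153 include 3 uncalled values relative to the typical peak that changed sign when only peaks with at least 10 input counts were fitted. No paired analysis was possible because the label of the input carries no replicate number and there is 1 input library.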
